A study of Camellia sinensis with 12 samples.

Results

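Of the 33932 annotated tea genes measured in leaf, 219 were high only in Yinghong 9, a conventional tea variety. They were chosen by their measured values. The Yinghong 9 mean of log2(FPKM + 1) had to exceed the highest of the other 3 genotype means by at least 2, and the 3 Yinghong 9 libraries had to exceed all 9 others. FPKM counts the sequenced fragments of a gene per kilobase of its length and relative to all mapped fragments of the library, so levels of different genes can be set side by side. A margin of 2 on the log2(FPKM + 1) scale means a 4-fold difference for a well-expressed gene and a larger fold for a gene near 0.

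The series compared leaves of 4 genotypes grown in a tea germplasm collection, with 3 libraries each. Kucha-6 and Kucha-11 are Kucha genotypes (Camellia kucha), and Yinghong 9 and Qingxin 1 are conventional varieties of Camellia sinensis. The design contrasted them for their content of theacrine, and no treatment was given. The sources used here do not give leaf age or the number of plants behind a library, so the p-values below measure the spread between libraries, which may be technical.

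Tea leaves make purine alkaloids by methylating xanthosine to theobromine and caffeine, and Kucha leaves carry caffeine further to theacrine, a methylated uric acid with a bitter taste. Tea plants outcross and cultivars are kept as clones by cuttings, so each cultivar is a single, highly heterozygous genotype. RNA of a whole leaf does not separate fewer cells of a type from less RNA per cell. The deposited tables give the annotated genes as identifiers with no name and no position, and 0 of the 33932 matched the 80110 genes of the RefSeq table at hand. No member is therefore given a function, leaf marker genes could not be looked up, and members are named only by fixed ranks of their values.

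The choice of members fixed that Yinghong 9 is the highest genotype, so their levels are given as a description. Their mean in Yinghong 9 had a median of 26.6 FPKM, with quartiles of 13.5 and 60.1 and a range from 3.83 to 897 FPKM. In the other genotypes the median of the same 219 genes was 1.64 FPKM in Kucha-6, 1.60 in Kucha-11 and 1.65 in Qingxin 1. A mean of at least 100 FPKM in Yinghong 9 was reached by 31 members, 146 lay between 10 and 100 FPKM, and 42 lay below 10. Together the members held 2.45% to 2.48% of the summed FPKM of annotated genes in the 3 Yinghong 9 libraries, against 0.175% to 0.252% in the 9 others. The 10 most abundant members made up 31.5% of the members' summed level in Yinghong 9.

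**Figure D1:**
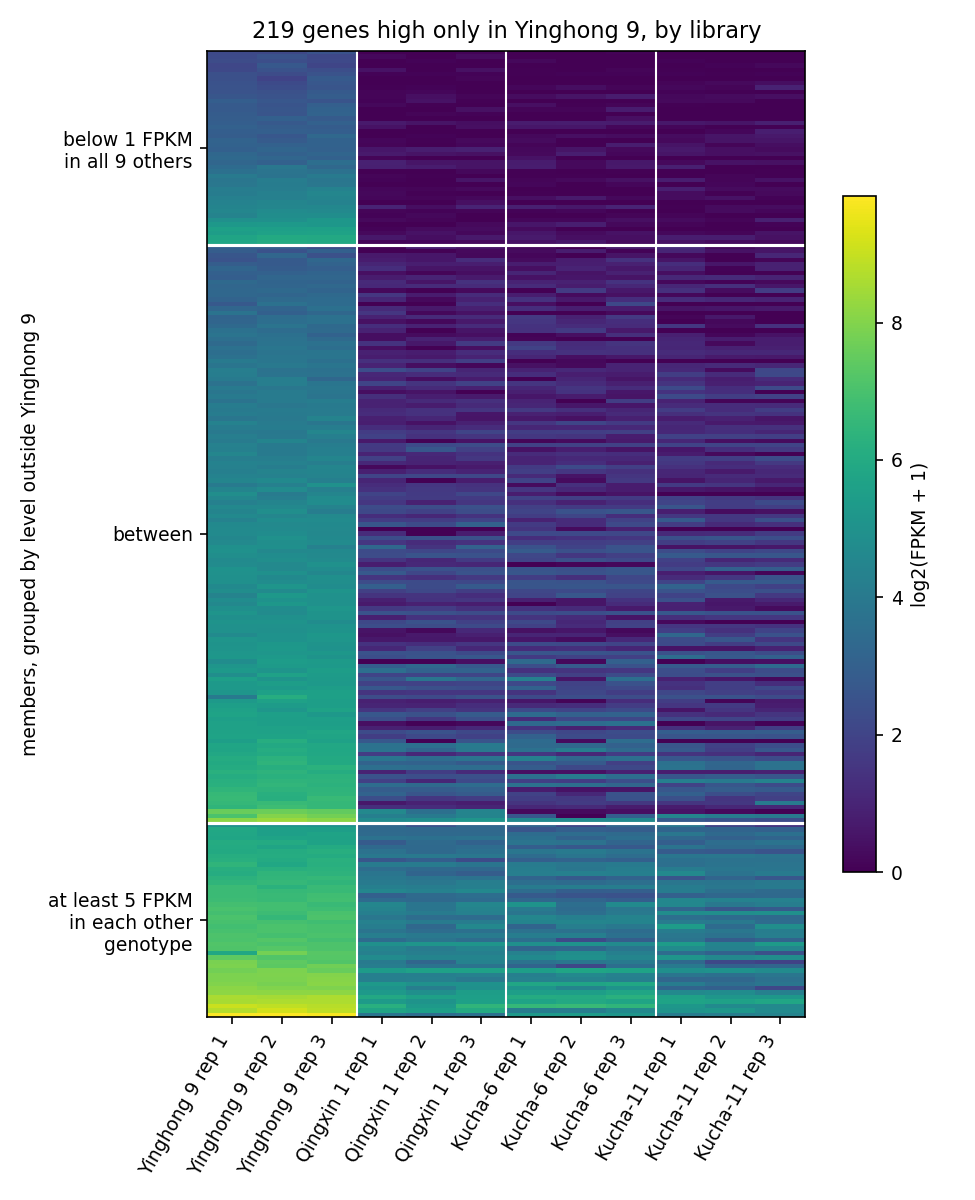
Each row is 1 of the 219 members and each column 1 of the 12 libraries; colour gives log2(FPKM + 1), and white lines separate genotypes and the groups of members by their level outside Yinghong 9. The 3 Yinghong 9 columns are brighter than the 9 others in every row, as the choice of members requires, and 44 rows at the top are dark in all 9 other libraries while 44 rows at the bottom are not.

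Since the choice used these contrasts, the next counts describe it and nothing is read from them. With limma, a linear model fitted across all features, all 219 members were called higher in Yinghong 9 than in Kucha-6, than in Kucha-11 and than in Qingxin 1. A difference is termed called where the Benjamini-Hochberg adjusted p is under 0.05 and the groups differ by 1 or more on the log2(FPKM + 1) scale. Of the 29364 features tested, 13.4%, 13.5% and 14.6% were called higher in Yinghong 9 in these comparisons, which share the Yinghong 9 libraries.

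The same rule found fewer annotated genes for each of the other genotypes, with 115 high only in Kucha-11, 95 high only in Qingxin 1 and 42 high only in Kucha-6. The number for Yinghong 9 moved with the scaling of the libraries. Over all tested features the median log2 difference of Yinghong 9 was 0.15 against Kucha-6, 0.07 against Kucha-11 and 0.17 against Qingxin 1. After quantile normalization, which removes such shifts, 188 genes met the rule for Yinghong 9, 186 of them members. After scaling by a trimmed mean of M-values (TMM) 183 did, all of them members. Under these scalings the other genotypes had 113 and 106 (Kucha-11), 100 and 100 (Qingxin 1), and 48 and 48 (Kucha-6), so Yinghong 9 had the most such genes under each scaling run.

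Library depth differed between the genotypes. The steps between low FPKM values gave a relative depth of 2.82, 1.51 and 1.62 for Yinghong 9 replicates 1, 2 and 3, where Kucha-6 replicate 2 is 1, and 0.953 to 1.27 for the other libraries. A second step was seen at 1.42, 0.75 and 0.809 for these Yinghong 9 replicates. It stood at 0.47 to 0.633 for the other libraries except Kucha-6 replicate 2, so the relative depths are uncertain. Annotated genes listed at 0 numbered 6394 to 7484 in the Yinghong 9 libraries and 7675 to 8496 in the others. Without Yinghong 9 replicate 1 the rule found 231 genes, 212 of them members. The part of depth in the number of members was not tested.

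The margin by which Yinghong 9 exceeded the next genotype had a median of 2.54 on the log2(FPKM + 1) scale. It reached 3 in 59 members, 4 in 20 and 5 in 5. The lowest Yinghong 9 library was at least 2 times the highest other library in 217 members, and the median ratio was 5.97. The ratio was lowest in TEA013013.1, at 1.69. In this gene Kucha-6 replicate 3 stood at 3.41 FPKM while the other Kucha-6 libraries stood at 0 and 0.34. This gene was named after its values were seen.

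**Figure D2:**
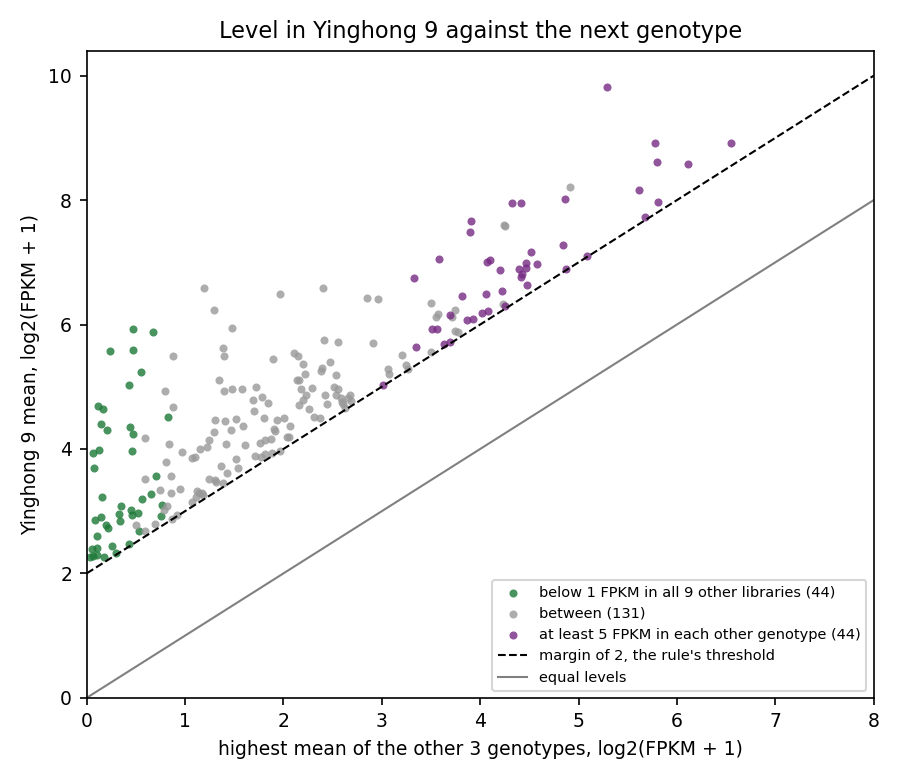
Each point is 1 member, with the highest mean of the other 3 genotypes on the horizontal axis and the Yinghong 9 mean on the vertical axis, both in log2(FPKM + 1); the dashed line is the margin of 2 that chose the members. Points lie densely just above the dashed line, and 59 of 219 lie at least 3 above equal levels.

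Members close to the threshold show how sharp the choice was. TEA028655.1 was just inside, with a margin of 2.01. It stood at 4.80, 5.94 and 8.75 FPKM in Yinghong 9, at 0.67, 0.51 and 1.40 in Qingxin 1, at 0.22, 0.72 and 1.68 in Kucha-6 and at 0.48, 0 and 0.11 in Kucha-11. TEA023622.1, also with 2.01, had its highest level outside Yinghong 9 in Kucha-11 (3.64, 2.44 and 2.73 FPKM), against 15.5, 15.9 and 12.9 in Yinghong 9. Just outside with margins of 1.99 stood TEA032868.1 and TEA003214.1, neither of which is a member. TEA032868.1 was at 78.2 ± 6.4 FPKM in Yinghong 9 and 18.9 ± 1.8 in Kucha-6, and TEA003214.1 at 3.87 ± 0.98 and 0.210 ± 0.130 (mean ± SD, n = 3 libraries each). With a margin of 1.5 in place of 2 the rule found 505 genes.

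The members fell into groups by their level outside Yinghong 9, with limits set after the data were seen. A first group of 44 members (20.1%) stayed below 1 FPKM in all 9 other libraries. Their Yinghong 9 means ran from 3.83 to 59.7 FPKM with a median of 7.50, and their medians elsewhere were 0.102 FPKM in Kucha-6, 0.127 in Kucha-11 and 0.0967 in Qingxin 1. In 17 of them at least 5 of the 9 other libraries were listed at 0, but no member of the 219 was listed at 0 in all 9. Over all members, 158 were above 0 in each of the 9 libraries, 40 were at 0 in 1 to 4 of them and 21 in 5 to 8.

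TEA003607.1 belongs to this group and had the largest margin of all members. Its level was 55.5, 63.2 and 60.4 FPKM in Yinghong 9. The other libraries read 0.09, 0.13 and 0.20 FPKM in Qingxin 1, 0.40, 0.54 and 0.23 in Kucha-6 and 0.35, 0.22 and 0.17 in Kucha-11. The gap to the next genotype was 5.45 on the log2(FPKM + 1) scale, with no library of another genotype near those of Yinghong 9.

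TEA019876.1 had the third-largest margin, 5.33. It stood at 47.3, 45.7 and 46.7 FPKM in Yinghong 9. It was listed at 0 in all 3 Kucha-11 libraries and in Kucha-6 replicates 2 and 3, and read 0.23 in Kucha-6 replicate 1 and 0.07, 0.21 and 0.27 in Qingxin 1. Its neighbour in number, TEA019878.1, was a member too, at 19.4, 21.6 and 19.8 FPKM in Yinghong 9. That gene was listed at 0 in 8 of the 9 other libraries and at 0.34 in Qingxin 1 replicate 3, so both were near 0 in every genotype but Yinghong 9.

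At the other end, 44 members (20.1%) had a mean of at least 5 FPKM in each of the other genotypes. These were transcribed in all 4 genotypes and differed by degree. Their Yinghong 9 means ran from 31.8 to 897 FPKM with a median of 120, against medians of 14.5 in Kucha-6, 13.5 in Kucha-11 and 16.0 in Qingxin 1. The ratio of the Yinghong 9 mean to the next genotype mean had a median of 5.61 and ran from 3.96 to 23.4. Of the 31 members with at least 100 FPKM in Yinghong 9, 28 were in this group, so the abundant members were rarely near 0 elsewhere.

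TEA002560.1 was the most abundant member and alone made up 7.10% of the members' summed level in Yinghong 9. It stood at 919, 907 and 865 FPKM there. The other genotypes read 39.1, 41.8 and 34.1 in Kucha-6, 16.7, 17.7 and 20.4 in Kucha-11 and 13.2, 10.5 and 11.8 in Qingxin 1. The 4 genotypes did not overlap in any library, and the ratio of the Yinghong 9 mean to the Kucha-6 mean was the 23.4 given above. Within the low genotypes, Kucha-6 exceeded Kucha-11 by 1.03 ± 0.12 and Qingxin 1 by 1.62 ± 0.12 in log2(FPKM + 1) units (SE; limma, adjusted p = 2.89e-05 and 2.45e-06). The former lay just over the threshold of 1 and was 0.97 without Kucha-6 replicate 2 and 0.97 without Kucha-11 replicate 1, where it was not called.

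TEA014379.1 came next, at 430, 571 and 464 FPKM in Yinghong 9. Among the others it was highest in Qingxin 1 (52.3, 46.0 and 64.5), then in Kucha-11 (33.5, 36.0 and 25.3) and in Kucha-6 (16.7, 17.2 and 23.8). The low genotypes thus had the reverse order of TEA002560.1, with Kucha-6 below Qingxin 1 by a log2 difference of -1.45 ± 0.17 (SE; limma, adjusted p = 8.58e-05).

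TEA032228.1 had the highest level of any member outside Yinghong 9. Its values were 538, 472 and 445 FPKM in Yinghong 9, 94.1, 97.9 and 85.5 in Kucha-6, 73.9, 39.2 and 85.6 in Qingxin 1 and 36.0, 25.2 and 23.8 in Kucha-11. Kucha-6 and Qingxin 1 overlapped, and Kucha-11 lay below both, by 1.69 ± 0.25 (SE) from Kucha-6 and with a log2 difference of Kucha-11 against Qingxin 1 of -1.15 ± 0.25 (limma, adjusted p = 2.68e-04 and 0.00334). Without Qingxin 1 replicate 3 the latter was -0.93 and not called. TEA031612.1, the fourth in abundance at 390 ± 14 FPKM in Yinghong 9, was nearly level elsewhere, at 54.9 ± 5.3 in Kucha-6, 51.9 ± 3.6 in Kucha-11 and 40.3 ± 7.7 in Qingxin 1 (mean ± SD, n = 3 each). None of its differences among these 3 was called.

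TEA024496.1 and TEA012582.1 also had high levels elsewhere. TEA024496.1 stood at 382 ± 13 FPKM in Yinghong 9 and 68.3 ± 6.1 in Kucha-6, 51.5 ± 8.5 in Qingxin 1 and 39.6 ± 7.7 in Kucha-11. TEA012582.1 stood at 249 ± 25 in Yinghong 9, 55.2 ± 2.2 in Kucha-6, 33.7 ± 4.6 in Qingxin 1 and 13.7 ± 2.8 in Kucha-11 (mean ± SD in FPKM, n = 3 each). Both had the order Kucha-6, Qingxin 1, Kucha-11, and in TEA012582.1 Kucha-11 was called lower than both, with a difference of 1.96 ± 0.14 (SE) for Kucha-6 over Kucha-11 (limma, adjusted p = 9.17e-07).

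The remaining 131 members (59.8%) lay between these groups, with Yinghong 9 means from 5.51 to 297 FPKM and a median of 25.1. TEA033521.1 was among them and had the second-largest margin of all members, 5.40. It stood at 85.8, 109 and 92.7 FPKM in Yinghong 9 and between 0.70 and 1.49 in the 9 other libraries, with no difference called among the other genotypes. Counted by genotype means, 106 of the 219 members reached 1 FPKM in all 3 other genotypes and 60 in none. A mean of at least 1 FPKM in a single other genotype was found in 10 members for Kucha-11, 8 for Kucha-6 and 5 for Qingxin 1.

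**Figure D3:**
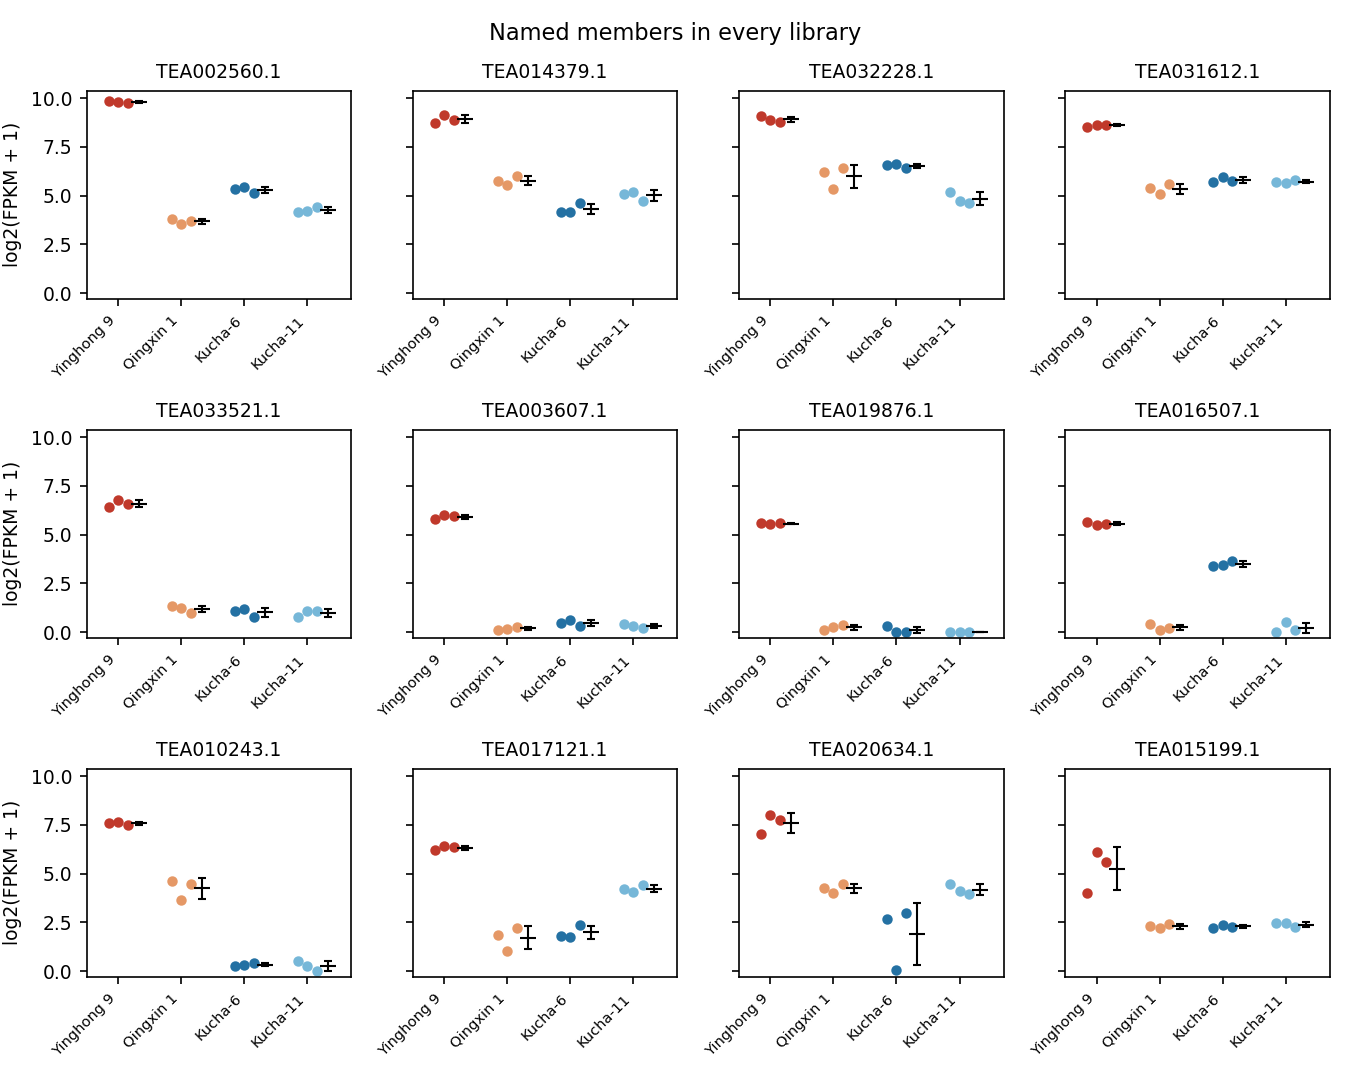
Points show log2(FPKM + 1) of 12 members in each of the 12 libraries, 3 per genotype, with the mean and SD of the 3 beside them. TEA003607.1 and TEA019876.1 lie near 0 outside Yinghong 9, TEA016507.1, TEA010243.1 and TEA017121.1 are raised in 1 further genotype (Kucha-6, Qingxin 1 and Kucha-11), and TEA015199.1 and TEA020634.1 vary most within a genotype.

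Replicates of Yinghong 9 agreed closely in most members. The coefficient of variation (CV, the SD as a percent of the mean FPKM) over the 3 libraries had a median of 10.3%, with quartiles of 6.66% and 16.6%. It was 9.45% over the 15751 annotated genes with a Yinghong 9 mean of at least 3.83 FPKM, the lowest level of a member. Replicates 1, 2 and 3 were the highest library in 60, 82 and 77 members.

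TEA027929.1 had the smallest CV, 0.392%, with 287, 288 and 285 FPKM in Yinghong 9, against 18.3 to 54.0 in the other libraries. TEA015199.1 had the largest, 61.6%, with 15.3, 69.1 and 47.7 FPKM in Yinghong 9. In the 9 other libraries TEA015199.1 was steady, between 3.55 and 4.51 FPKM, and none of the differences among those genotypes was called. Its spread was therefore confined to Yinghong 9 in these 12 libraries.

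Whether the members differed among the genotypes in which they are low is a question the choice settled only in part. It set an upper limit on the highest of these genotypes, so genes high in any of them were less likely to be members. The 9 libraries of Kucha-6, Kucha-11 and Qingxin 1 were fitted alone, and a feature was tested where 3 or more of these 9 reached 1 FPKM. Of the members, 152 passed this filter and 67 did not. The 152 are the better-expressed part of the list and do not stand for all members.

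Kucha-6 and Kucha-11, both Kucha genotypes, differed in 37 of the 152 members (24.3%), against 19.9% of the 27861 features tested and 16.8% of the 21976 annotated genes tested. Of these 37, 22 were higher in Kucha-6 (14.5% of the members tested, against 9.01% of all features) and 15 were higher in Kucha-11 (9.87%, against 10.9%). Among annotated genes alone the shares were 7.79% and 9.02%. With quantile normalization the split was 26 to 14, against 9.82% and 9.76% of all features. With TMM scaling it was 26 to 12, against 9.92% and 9.85%. The size of the difference, without its sign, had a median of 0.60 on the log2(FPKM + 1) scale in the members and 0.40 over all features.

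Kucha-6 and Qingxin 1 differed in 17 of the 152 members (11.2%), against 12.2% of all features and 9.18% of annotated genes, so the members' share was close to the background. Of the 17, 7 were higher in Kucha-6 (4.61%, against 6.03% of all features) and 10 were higher in Qingxin 1 (6.58%, against 6.21%). For annotated genes alone these shares were 4.54% and 4.64%. With quantile normalization the split was 7 to 10, against 5.96% and 6.32% of all features. With TMM scaling it was 7 to 12, against 5.98% and 6.54%. The median size of the difference was 0.36 in the members and 0.30 over all features.

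Kucha-11 and Qingxin 1 differed in 30 of the 152 members (19.7%), against 20.0% of all features and 16.3% of annotated genes. Only 8 were higher in Kucha-11 (5.26%, against 11% of all features), and 22 were higher in Qingxin 1 (14.5%, against 8.96%). For annotated genes alone these shares were 8.86% and 7.45%. With quantile normalization the split was 4 to 26, against 9.77% and 9.91% of all features. With TMM scaling it was 5 to 26, against 9.71% and 10.2%. The median size of the difference was 0.52 in the members and 0.40 over all features.

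**Figure D4:**
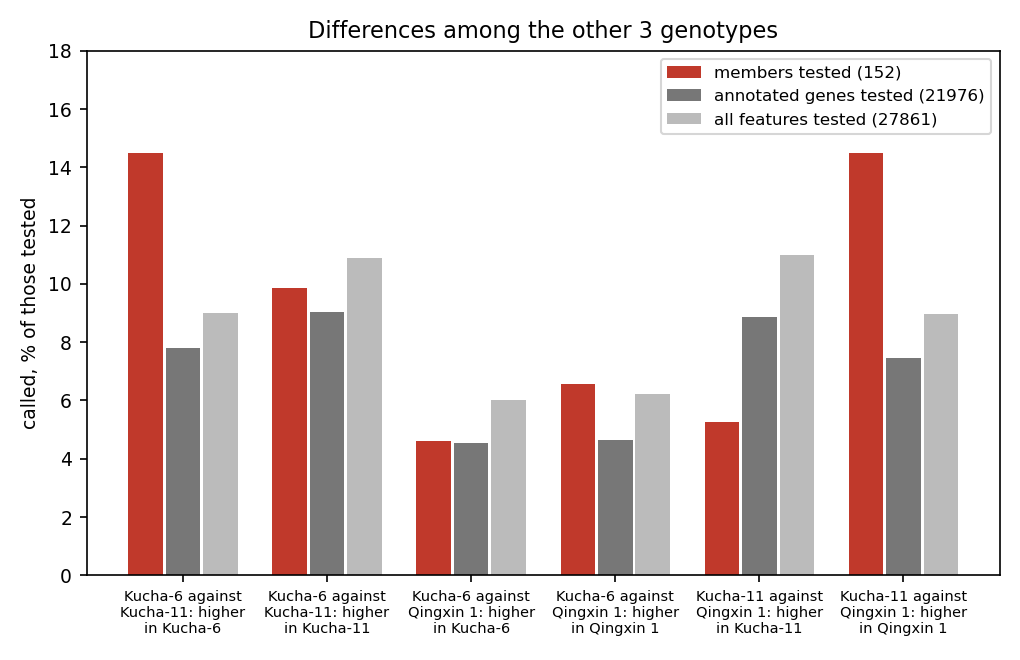
Bars give the percent of the features tested that limma called, by pair of genotypes and direction, for the 152 members tested, the 21976 annotated genes tested and all 27861 features tested. The members' bars stand at 14.5% where Kucha-11 was the lower genotype, above both backgrounds, and at 5.26% for genes higher in Kucha-11 than in Qingxin 1, below both.

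Kucha-11 was accordingly the genotype in which called members were most often lowest. In 14 of the 152 members (9.21%) Kucha-11 was called lower than both Kucha-6 and Qingxin 1, against 4.48% of all features tested, and in 6 (3.95%) it was called higher than both, against 6.70%. These pairs share the Kucha-11 libraries. The 14 had a median of 4.63 FPKM in Kucha-11, 12.7 in Kucha-6, 11.9 in Qingxin 1 and 74.8 in Yinghong 9. Called or not, Kucha-11 had the lowest mean in 62 of the 152 (40.8%), against 31.3% of annotated genes tested, and the highest in 52 (34.2%), against 44.2%. In 98 members (64.5%) no pair was called, against 69.5% of all features. Put the other way, at least 1 pair was called in 35.5% of the members tested, against 30.5% of all features and 25.5% of annotated genes tested. The choice limits the highest of these genotypes from above, and over annotated genes that was most often Kucha-11. It therefore bears on the shares given here, and how much was not tested. No test of the list against the background was made.

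The levels of the members were also compared between the low genotypes. Across the 152 members the Pearson correlation of log2(FPKM + 1) averaged 0.815 between libraries of Kucha-6 and Qingxin 1 (0.772 to 0.855 over 9 pairs of libraries), 0.762 between Kucha-11 and Qingxin 1 and 0.729 between Kucha-6 and Kucha-11. Over all 27861 features these means were 0.895, 0.835 and 0.841. Members are not independent replicates and their levels are limited from above, so these values only describe the libraries.

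Single members showed how different the second genotype can be. TEA016507.1 was the member with the largest called excess of Kucha-6 over both Kucha-11 and Qingxin 1. It stood at 9.36, 10.04 and 11.6 FPKM in Kucha-6, at 0, 0.44 and 0.07 in Kucha-11 and at 0.31, 0.07 and 0.17 in Qingxin 1, against 48.9, 44.6 and 45.5 in Yinghong 9. The differences were 3.29 ± 0.19 and 3.26 ± 0.19 in log2(FPKM + 1) units (SE; limma, adjusted p = 2.44e-07 and 6.08e-07). Of the 9 libraries fitted, only those of Kucha-6 reached 1 FPKM, so the gene was tested only through the genotype where it is high. It was also picked for the size of this excess, so nothing is read from these p-values. All 3 Kucha-6 libraries lay above all 6 of the other low genotypes. Its margin of Yinghong 9 over Kucha-6 was 2.07, and it fell below the 2 that makes a member, to 1.90, with quantile normalization and with TMM scaling.

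TEA010243.1 was near 0 in both Kucha genotypes and present in both conventional varieties. Its level was 194, 198 and 179 FPKM in Yinghong 9 and 24.0, 11.6 and 20.8 in Qingxin 1. It read 0.20, 0.22 and 0.33 in Kucha-6 and 0.44, 0.20 and 0 in Kucha-11. Qingxin 1 exceeded both, with log2 differences of -3.93 ± 0.25 for Kucha-6 against Qingxin 1 and -3.98 ± 0.25 for Kucha-11 against Qingxin 1 (SE; limma, adjusted p = 1.2e-06 and 4.17e-07). In the 9 libraries fitted, only those of Qingxin 1 reached 1 FPKM, so this gene too was tested only through the genotype where it is high. As it was named for its large differences, nothing is read from these p-values.

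TEA017121.1 had the largest called excess of Kucha-11 over Qingxin 1. It stood at 17.8, 15.5 and 20.3 FPKM in Kucha-11, 2.66, 1.06 and 3.56 in Qingxin 1 and 2.54, 2.37 and 4.16 in Kucha-6, against 72.7, 83.8 and 81.3 in Yinghong 9. Kucha-11 exceeded Qingxin 1 by 2.53 ± 0.27 (SE; limma, adjusted p = 2.18e-05), and its libraries did not overlap those of the other low genotypes.

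TEA020634.1 had the largest called excess of Kucha-11 over Kucha-6, and 1 library set much of its size. It stood at 21.4, 16.1 and 14.6 FPKM in Kucha-11 and at 5.42, 0.04 and 6.89 in Kucha-6, with 18.3, 15.1 and 20.9 in Qingxin 1 and 131, 258 and 212 in Yinghong 9. The log2 difference of Kucha-6 against Kucha-11 was -2.27 ± 0.67 (SE; limma, adjusted p = 0.022). Without Kucha-6 replicate 2 it was -1.35 ± 0.18 (limma, adjusted p = 2.1e-04). It was no longer called when Kucha-11 replicate 1, 2 or 3 was left out, with limma adjusted p = 0.0812, 0.0674 and 0.0677.

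Another member with 1 library apart was TEA002875.1, named after its values were seen. It read 16.1 FPKM in Kucha-11 replicate 3, against 1.83 and 2.04 in the other Kucha-11 libraries and 0.56 to 2.29 in Kucha-6 and Qingxin 1. The gene is 1 of the 8 members called higher in Kucha-11 than in Qingxin 1, by 1.61 ± 0.55 (SE; limma, adjusted p = 0.0332). Whether that call holds without this library was not tested. In Yinghong 9 it stood at 93.6, 97.8 and 93.6.

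In order of their identifier number, 16 of the 218 steps from one member to the next (7.34%) were of at most 5, with 31 genes involved. By the same count the steps of at most 5 were 3 of 114 in the Kucha-11 list, 4 of 94 in the Qingxin 1 list and 0 of 41 in the Kucha-6 list. A longer list has closer numbers by its length alone, and no test of the spacing was made. The files give no position for these genes, so whether near numbers are near places on the genome was not checked.

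Members with close numbers had like levels in some pairs and unlike levels in others. The consecutive pair TEA003643.1 and TEA003644.1, named for their numbers and not by rank, stood at 47.5 to 49.2 and 51.1 to 53.3 FPKM in Yinghong 9. Outside it TEA003643.1 read 0.78 to 2.55 and TEA003644.1 read 2.44 to 7.23. The other consecutive pair, TEA008875.1 and TEA008876.1, read 95.1, 73.4 and 86.8 and 240, 163 and 210 FPKM in Yinghong 9 replicates 1, 2 and 3. Both were lowest in Kucha-6 replicate 2, at 1.11 and 3.22 FPKM. In a pair 3 apart, TEA030902.1 and TEA030905.1, also named for their numbers, the Yinghong 9 means were 17.3 and 258 FPKM.

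Unannotated loci, which the choice of members left out, met the same margin and non-overlap conditions in 175 of 8772 cases (1.99%), against 219 of 33932 annotated genes (0.645%). The share was larger in unannotated loci for each other genotype too, at 0.787% against 0.124% for Kucha-6, 1.42% against 0.339% for Kucha-11 and 0.98% against 0.28% for Qingxin 1.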

How the data were processed

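The authors deposited 1 table of FPKM values per library, with 2 decimals, per the file headers. The submitters' processing notes name TopHat2 2.1.1 and Bowtie2 2.2.8; the sources used here do not name the program that computed FPKM, the genome build or the annotation. The extraction text in the labels' protocols mentions retinas; the tissue label, leaf, was used. Counting by strand is not stated, so overlapping genes and near-identical copies could share fragments.

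Read counts are not given, so absolute depth is unknown; relative depth came from ratios of low values (0.12 to 1.2 FPKM) to those of Kucha-6 replicate 2. FPKM sums were 609588 to 653908 per library. Replicates had equal values in at most 1.32% of features above 0, so none was a copy.

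Tests used limma 3.58.1 (R 4.3.3; trended, robust prior) on log2(FPKM + 1) across all features, which understates fold changes of low genes. Pairs among Kucha-6, Kucha-11 and Qingxin 1 came from their 9 libraries, pairs with Yinghong 9 from all 12, each with 1 FPKM or more in 3 libraries. On simulated data for Kucha-6 against Qingxin 1 over 27861 features, 67 were changed 1.5-fold, 67 were changed 3-fold and 66 were changed 6-fold. Of these changes 4.48%, 95.5% and 100% were recovered. A 1.5-fold change lies below the log2 difference of 1 that a call requires, so few of those could be recovered.

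Members were named by rank: the 4 highest in Yinghong 9, the 3 largest margins, the 3 highest elsewhere, the largest called difference per pair and direction, 2 on each side of the threshold, and the extremes of the CV. The members and these rules were chosen with earlier results of these data known. Replicate numbers did not pair the libraries.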

Additional observations from a re-analysis of the deposited data

How the results depend on the processing

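The number of genes high only in Yinghong 9 was 219. It was 562 with a pseudocount of 0.1, 505 with a margin of 1.5 and 59 with a margin of 3; it stayed within 1.5 times of 219 under quantile normalization, TMM scaling and overlap allowed, and ran from 209 to 231 when 1 library was left out. The larger and smaller numbers follow from the looser and stricter settings themselves. For the differences among the other genotypes, a filter of 5 FPKM left 71 members. Of these, 10 were called in Kucha-6 against Qingxin 1, where 10.5% of all features passing that filter were called. In Kucha-11 against Qingxin 1, 19 of the 71 were called, against 17.9% of all features. Under this filter the members' share was above that of all features in both pairs. The cause of the lower counts was not tested. Leaving out 1 library gave 33 to 38 (Kucha-6 against Kucha-11), 13 to 22 (Kucha-6 against Qingxin 1) and 24 to 32 (Kucha-11 against Qingxin 1) called members. These were out of 147 to 150 members tested, and the shares over all features are not given for these fits. Against Yinghong 9 the lowest numbers, 174 and 175, came from leaving out a Yinghong 9 library, when only 175 members passed the filter. The called differences among the other genotypes were recomputed for the members named by rank, and none changed sign where it could be fitted. Calls were lost by TEA020634.1 (limma, adjusted p up to 0.0819 for Kucha-6 against Kucha-11 and 0.0972 for Kucha-6 against Qingxin 1). Differences near the threshold of 1 were also lost: TEA002560.1 (down to 0.97) and TEA027929.1 (0.91) for Kucha-6 over Kucha-11, TEA032228.1 (-0.93) and TEA023622.1 (0.88) for Kucha-11 against Qingxin 1, the last also with quantile normalization (0.89) and TMM scaling (0.93). Of the members named by rank, TEA016507.1, TEA028655.1 and TEA023622.1 fell below the margin of 2 with quantile normalization (1.90, 1.82 and 1.93) and TMM scaling (1.90, 1.87 and 1.93), and TEA012582.1 with TMM scaling (1.98).

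With the replicate number as a block, 38, 17 and 31 members were called in Kucha-6 against Kucha-11, Kucha-6 against Qingxin 1 and Kucha-11 against Qingxin 1. Without the block these numbers were 37, 17 and 30. The block fits called 19.9%, 12.2% and 20% of all features tested. The deviations of the 18 same-numbered pairs of libraries correlated at -0.103 to 0.056, and 2 of 12 libraries correlated best with one of their own number. Depth limits what can be said of values near 0, which can be below the rounding.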
